A study of Homo sapiens with 6 samples.

Results

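The genes described here encode the core of the TGF-beta signalling chain: the ligand TGFB1, its receptors TGFBR1 and TGFBR2, and the SMAD proteins SMAD1 to SMAD7. They were chosen by name, 10 of the 56638 gene names in the count table, and all 10 had enough reads to be tested among 16340 genes. RNA sequencing of polyadenylated RNA was done on HL60 cells, a line of promyelocyte-like cells from a human myeloid leukaemia, grown in RPMI with 10% FCS. There were 3 control libraries, from CRISPR/Cas9 control cells of the line numbered 1, and 3 knockout libraries, from cells of the line numbered 3 with a CRISPR/Cas9-mediated deletion of SKI. Each group therefore held 1 line, so a difference between the groups cannot be told apart from a difference between these lines. Nothing in the labels says that replicates were separate cultures, and the spread behind the p-values is that of these libraries alone and may be technical.

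TGF-beta binds the type II receptor TGFBR2, which joins and phosphorylates the type I receptor TGFBR1, a kinase that in turn phosphorylates SMAD2 and SMAD3. BMP receptors act in the same way on SMAD1, SMAD5 and SMAD9. Phosphorylated SMADs bind the common partner SMAD4 and enter the nucleus, where SKI and its relative SKIL can bind them and hold target genes repressed. SMAD6 and SMAD7 are inhibitory SMADs whose genes are themselves induced by the pathway, and TGF-beta restrains the growth of many blood progenitors.

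Library totals ran from 47930276 to 58553247 counts, and the listed genes had between 142 counts (SMAD6 in control and in knockout replicate 1) and 7868 counts (TGFB1 in control replicate 3) in a library. Levels are given as CPM, the read count relative to the scaled library size, and levels of different genes are compared as RPKM, CPM per kilobase of the deposited gene length. For SKI, the targeted gene, controls 1 to 3 gave 63.9, 83.5 and 88.5 CPM, and knockouts gave 59.6, 40.7 and 42.0 CPM. The groups of SKI did not overlap (log2 fold change -0.73, SE 0.19, edgeR adjusted p = 0.0282). The SKI call was lost without control replicate 2 (adjusted p = 0.109), control replicate 3 (0.136) or knockout replicate 2 (0.0769), with library totals (0.0673) and with centring on neighbouring genes (log2 -0.44, 0.203), and an mRNA level does not show whether the protein was lost. Of 8 promyelocyte marker genes none was at 0 in every library, which by itself does not identify the cells. Too few reads kept 1 of the 8 from being tested. In the knockout 5 of the 7 tested fell, against 5.63% of all tested genes called lower. AZU1 and PRTN3 were called in all 15 alternative analyses, CD33 in 9, and MPO and CTSG in 10 each. AZU1, PRTN3 and CD33 lie on chromosome 19, where the median log2 fold change was -0.48. With each gene centred on its chromosome, AZU1 was at -2.14 and PRTN3 at -3.68, still called, while CD33 was at -0.10 (adjusted p = 0.724) and CTSG at -0.71 (0.108). The summed level of the 8 markers was 12897 to 15201 CPM in the control and 3255 to 9631 CPM in the knockout libraries, to which the granule enzyme gene MPO gave 12752 CPM in the control on average, and its part in the results below was not tested. Summed levels of marker genes reached 1.41 CPM in the control and 5.87 CPM in the knockout for 5 lymphoid genes, with MS4A1 at 0. These sums were nearly all CD79A, which alone gave 1.39 CPM in control replicate 3 and 5.87 CPM in knockout replicate 3. The 1 lymphoid gene tested, CD79A, rose (log2 1.70, adjusted p = 0.0162) and was called in 13 of 15 alternatives, not without control replicate 2 (0.0657) or control replicate 3 (0.0521). The sums were at most 1.09 CPM in any library for erythroid and platelet, fibroblast and epithelial, and monocyte and macrophage genes, with HBA1, PF4, COL3A1 and MRC1 at 0. In bulk RNA, fewer cells of a type and less RNA per cell cannot be told apart.

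Of the 10 genes, SMAD7 rose in the knockout, TGFB1 fell, and the other 8 did not pass the test. Among all 16340 tested genes 11.8% passed at an adjusted p under 0.05, 6.19% higher and 5.63% lower, so 2 of 10 genes is near the background. Control and knockout ranges were apart for SMAD7, TGFBR1 and TGFB1, 3 of the 10, against 32.2% of all tested genes. The median log2 fold change of the 10 genes was -0.00 and that of all tested genes -0.01. The largest log2 fold change in either direction was 0.89, that of SMAD7.

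**Figure D1:**
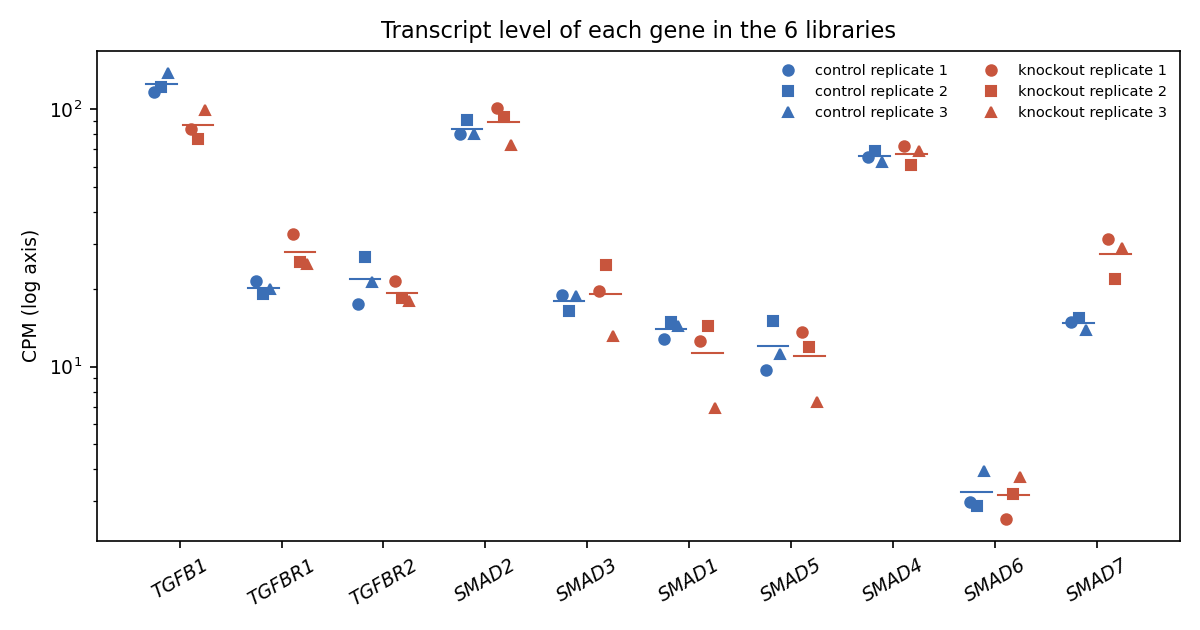
Transcript level in CPM (log axis) of each gene in the 6 libraries, with control in blue, knockout in red, 1 symbol shape per replicate number and a bar at each group mean. The knockout points of SMAD7 and TGFBR1 lie above all control points and those of TGFB1 below them, while the groups overlap for the other 7 genes.

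SMAD7 encodes the inhibitory SMAD that binds activated TGF-beta receptors, blocks SMAD2 and SMAD3 and recruits the ubiquitin ligases SMURF1 and SMURF2. Its level was 14.96, 15.5 and 13.9 CPM in the control libraries and 31.4, 21.9 and 28.8 CPM in the knockout libraries. The controls lay close together, and even the lowest knockout library, replicate 2, stood above all of them. The mean rose from 14.8 ± 0.821 to 27.4 ± 4.95 CPM (SD, n = 3), 1.85-fold, with a 95% interval of 1.41 to 2.43. The log2 fold change was 0.89 (SE 0.18, edgeR adjusted p = 0.00854). It kept its call in 14 of 15 alternative analyses, and lost it without control replicate 3 (log2 0.84, adjusted p = 0.0567). Over all 15 the log2 fold change ran from 0.79 to 1.05 and the adjusted p from 0.000152 to 0.0567. SMAD7 lies on chromosome 18, where the median log2 fold change of 144 genes was 0.03, and centring each gene on its chromosome left SMAD7 at 0.91. In the authors' deposited table SMAD7 has 0.85 on the log2 scale (adjusted p = 0.000235).

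SMAD6, the other inhibitory SMAD and the one directed mainly at BMP receptors, gave 2.97, 2.87 and 3.93 CPM in the control and 2.57, 3.19 and 3.74 CPM in the knockout libraries. The groups overlapped, and the log2 fold change was -0.04 (95% interval -0.60 to 0.51, adjusted p = 0.938). That interval excludes the fitted SMAD7 change, but it overlaps slightly with the 95% interval of SMAD7, 0.50 to 1.28 on the log2 scale. The difference between the 2 genes was not tested. As a ratio of RPKM within a library, SMAD7 over SMAD6 was 4.996, 5.37 and 3.51 in the control and 12.2, 6.81 and 7.66 in the knockout libraries. The lowest knockout ratio exceeded the highest control ratio.

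Promoter sequences are shown for SMAD7 and TGFB1, the genes that passed the test, and for SMAD6, whose window holds the palindromic SMAD-binding element. Each is the 250 bases before an annotated start in RefSeq (GRCh38.p14), read 5′ to 3′ on the gene's strand, and the counts were made on an earlier build. Capitals mark CAGAC, the short SMAD box, on either strand (GTCTG on the other), and the palindrome GTCTAGAC, which does not contain CAGAC.
SMAD7, chr18:48950966-48951215, minus strand: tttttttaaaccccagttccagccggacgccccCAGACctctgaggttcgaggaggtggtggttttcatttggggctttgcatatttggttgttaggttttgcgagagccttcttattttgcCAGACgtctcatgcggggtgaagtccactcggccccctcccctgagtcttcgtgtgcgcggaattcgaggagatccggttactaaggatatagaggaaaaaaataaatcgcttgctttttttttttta
SMAD6, chr15:66701986-66702235, plus strand: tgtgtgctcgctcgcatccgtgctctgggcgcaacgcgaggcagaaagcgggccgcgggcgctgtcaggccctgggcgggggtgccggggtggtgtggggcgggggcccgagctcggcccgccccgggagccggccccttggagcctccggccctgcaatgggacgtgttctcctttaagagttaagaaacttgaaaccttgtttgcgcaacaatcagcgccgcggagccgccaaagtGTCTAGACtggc
TGFB1, chr19:41353923-41354172, minus strand: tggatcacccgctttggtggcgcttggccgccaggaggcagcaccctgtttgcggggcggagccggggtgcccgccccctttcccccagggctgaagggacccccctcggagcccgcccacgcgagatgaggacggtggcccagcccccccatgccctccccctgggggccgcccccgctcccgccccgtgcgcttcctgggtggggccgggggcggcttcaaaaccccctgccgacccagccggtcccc
The SMAD7 window upstream of the outermost start holds CAGAC at 2 places, the SMAD6 window holds GTCTAGAC at 1 place, and the TGFB1 window holds neither. Windows of other SMAD7 starts, not printed, hold CAGAC at 1 place (chr18:48949334-48949583) and at 0 places (chr18:48942808-48943057). A start was found for all 10 genes, with 29 windows in all, some of which overlap. CAGAC occurred in 9 of the 29, spread over 4 of the 10 genes, and in 38.0% of all 35116 windows of that length. GTCTAGAC occurred in 1 of the 29 and in 0.182% of all windows. The GC-rich element GGCGCC, its own reverse complement, occurred in 7 of the 29 and in 16.4% of all windows. These matches describe the letters of the windows and were not related to the fold changes by any test. Bases outside the windows were not searched, so a motif absent from a window may lie elsewhere at that gene.

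TGFB1 encodes the ligand itself, which is made as a latent precursor and released from it outside the cell. It had control values of 117, 122 and 139 CPM and knockout values of 84.2, 76.6 and 99.4 CPM. Every knockout library was under every control library, with knockout replicate 3 nearest. The mean went from 126 ± 11.4 to 86.7 ± 11.6 CPM (SD, n = 3), and the log2 fold change was -0.54 (SE 0.15, 95% interval -0.87 to -0.20). The edgeR adjusted p of 0.0440 was close to the threshold. The call was lost without control replicate 1 (adjusted p = 0.0875), control replicate 2 (0.127), control replicate 3 (0.180), knockout replicate 1 (0.132) or knockout replicate 2 (0.107), and with library totals in place of scaled sizes (0.0580). Without knockout replicate 3 the adjusted p was 0.0125. In the authors' deposited table TGFB1 has -0.49 on the log2 scale (adjusted p = 0.0438).

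The fall of TGFB1 was of the size seen over its whole chromosome. TGFB1 lies on chromosome 19, where 693 genes had a median log2 fold change of -0.48 with 85.9% below 0. The chromosome 19 median against the control mean was -0.53, -0.55 and -0.38 in knockout replicates 1 to 3. Of the knockout libraries, replicate 3 was also the highest for TGFB1. Whether the fall of TGFB1 and that of its chromosome share a cause was not tested. With each gene centred in each library on its chromosome, TGFB1 moved to -0.07 on the log2 scale (adjusted p = 0.804). Centred on its 50 nearest neighbours it moved to -0.15 (adjusted p = 0.564). Exons of TGFB1 overlap those of HNRNPUL1 on the opposite strand. Use of strand in the counting was not stated in the sources used here. HNRNPUL1, an RNA-binding protein gene looked up for this overlap, changed by -0.65 on the log2 scale (adjusted p = 0.0214), with 470 ± 42.4 CPM in the control and 300.4 ± 27.3 CPM in the knockout (SD, n = 3).

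**Figure D2:**
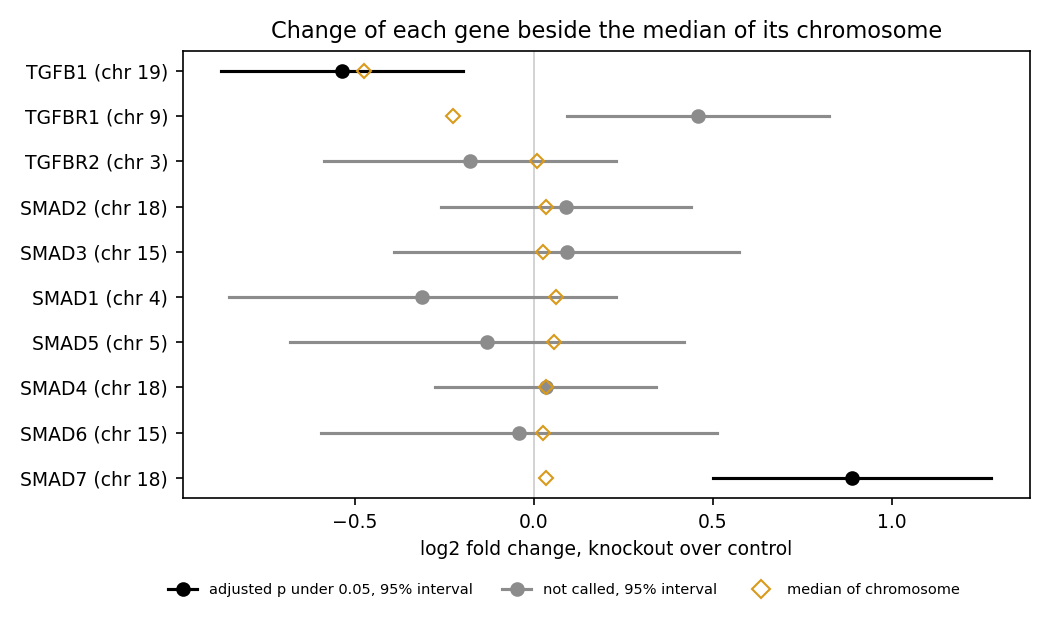
Log2 fold change of knockout over control with its 95% interval for each gene (black where the adjusted p is under 0.05, grey otherwise), beside the median log2 fold change of its chromosome (open diamond). TGFB1 at -0.54 sits near the chromosome 19 median of -0.48, whereas SMAD7 at 0.89 and TGFBR1 at 0.46 lie above the medians of chromosomes 18 and 9.

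TGFBR1, the type I receptor kinase, was higher in every knockout library without passing the test. Its controls gave 21.6, 19.1 and 20.04 CPM against 32.8, 25.5 and 25.1 CPM in the knockouts. The groups did not overlap, and knockout replicate 1 was set apart from the other knockout libraries. The means were 20.2 ± 1.23 and 27.8 ± 4.34 CPM (SD, n = 3), and the log2 fold change was 0.46 (SE 0.17, 95% interval 0.09 to 0.82) with an edgeR adjusted p of 0.100. TGFBR1 lies on chromosome 9, where the median of 408 genes was -0.23. Centred on its chromosome, TGFBR1 had a log2 fold change of 0.69 and passed (adjusted p = 0.0253), in a fit in which 8.43% of all genes passed. Centred on its nearest neighbours it had one of 0.50 and did not pass (0.0818), in a fit in which 7.83% of all genes passed. It also passed without knockout replicate 3 (log2 0.55, adjusted p = 0.0462). Leaving out knockout replicate 1 gave 0.34 (adjusted p = 0.255). In the authors' deposited table TGFBR1 has 0.45 on the log2 scale (adjusted p = 0.0824).

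TGFBR2, the ligand-binding type II receptor, stood at 17.6, 26.6 and 21.4 CPM in the control and 21.6, 18.4 and 18.01 CPM in the knockout libraries. The knockout range lay inside the control range. Its log2 fold change was -0.18 (95% interval -0.59 to 0.23, adjusted p = 0.583). The ratio of TGFBR1 to TGFBR2 in RPKM was 0.843, 0.494 and 0.643 in the control libraries and 1.05, 0.952 and 0.957 in the knockout libraries. The control ratios were spread widely and the knockout ratios lay close together above them, and no test of this ratio was made.

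**Figure D3:**
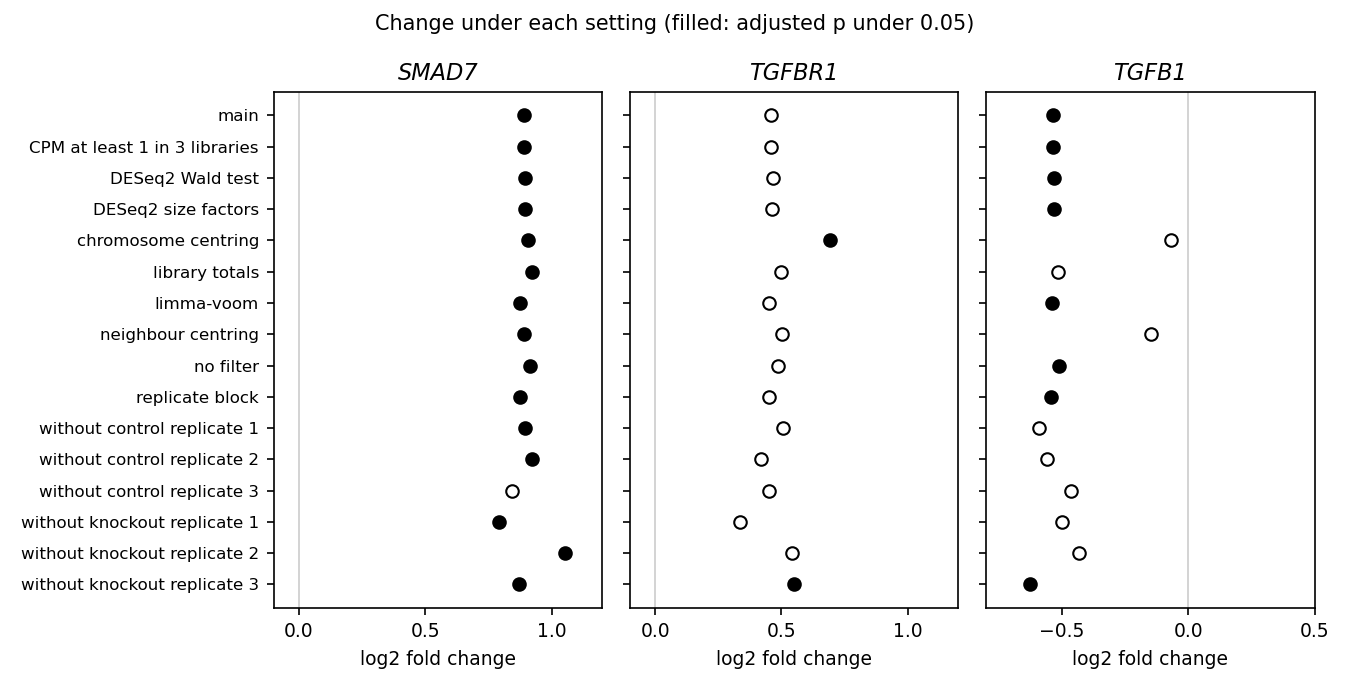
Log2 fold change of SMAD7, TGFBR1 and TGFB1 in the main analysis and in 15 alternatives, filled where the adjusted p is under 0.05. SMAD7 stays between 0.79 and 1.05 and is open once, without control replicate 3. TGFB1 moves to -0.07 with chromosome centring and -0.15 with neighbour centring, and TGFBR1 is filled with chromosome centring and without knockout replicate 3.

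The receptor-regulated SMADs of the TGF-beta branch did not pass the test. SMAD2 gave 80.1, 91.3 and 80.1 CPM in the control and 102, 93.2 and 73.0 CPM in the knockout libraries. Knockout libraries of SMAD2 lay both above and below the control range, and the log2 fold change was 0.09 (95% interval -0.26 to 0.44, adjusted p = 0.762). SMAD3, a DNA-binding partner of SMAD2, gave 19.0, 16.4 and 18.8 CPM in the control and 19.7, 24.9 and 13.1 CPM in the knockout. The knockout values of SMAD3 enclosed all control values, and the log2 fold change was 0.09 (95% interval -0.39 to 0.57, adjusted p = 0.832). SMAD4, the common partner of both branches, gave 65.4, 69.2 and 62.5 CPM in the control and 72.1, 60.7 and 68.8 CPM in the knockout. Its log2 fold change was 0.03, with the narrowest 95% interval of the 10 genes, -0.28 to 0.34 (adjusted p = 0.910).

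The receptor-regulated SMADs of the BMP branch did not pass either. SMAD1 gave 12.8, 14.9 and 14.4 CPM in the control and 12.5, 14.4 and 6.92 CPM in the knockout libraries. Knockout replicate 2 was inside the control range, replicate 1 just under it and replicate 3 far below it. The log2 fold change of SMAD1 was -0.31 (95% interval -0.85 to 0.23, adjusted p = 0.455), and without knockout replicate 3 it was -0.04. SMAD5 gave 9.73, 15.04 and 11.3 CPM in the control and 13.7, 12.0 and 7.30 CPM in the knockout libraries. For SMAD5 only knockout replicate 3 was outside the control range. The log2 fold change of SMAD5 was -0.13 (95% interval -0.68 to 0.42, adjusted p = 0.783), and without knockout replicate 3 it was 0.11. SMAD9, the remaining SMAD of the BMP branch and not among the 10, was low, with 35 to 100 counts in a library. It stood at 1.25 ± 0.460 CPM in the control and 0.802 ± 0.202 CPM in the knockout (SD, n = 3). The log2 fold change of SMAD9 was -0.64 (adjusted p = 0.269). Exons of SMAD1, SMAD3 and SMAD5 overlap genes on the opposite strand, and those of SMAD4 and SMAD5 genes on the same strand.

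SMAD1, SMAD3 and SMAD5 were low in knockout replicate 3, and SMAD2 was lower to a lesser degree. Against the mean of the other knockout libraries, that library differed on the log2 CPM scale by -0.96 for SMAD1, -0.81 for SMAD5, -0.75 for SMAD3 and -0.41 for SMAD2. SMAD4 differed by 0.06, SMAD7 by 0.14, SMAD6 by 0.38, TGFBR1 by -0.21, TGFBR2 by -0.15 and TGFB1 by 0.31. The median of 10568 genes with an average log2 CPM above 2 was -0.03. Among those genes 2.38% lay at least as low as SMAD1, 4.24% as SMAD5, 5.44% as SMAD3 and 19.1% as SMAD2. These values describe 1 library and were read after seeing the data.

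Per length, TGFB1 was far the highest of the 10 genes, at 38.9 ± 3.51 RPKM in the control (SD, n = 3), in the 92.8 percentile of tested genes. SMAD2 at 6.09 and SMAD4 at 4.92 RPKM followed, then TGFBR2 at 4.65, SMAD7 at 4.01, TGFBR1 at 2.96, SMAD1 at 2.32, SMAD3 at 1.98, SMAD5 at 1.37 and SMAD6 at 0.889 RPKM. Ranges over the control libraries overlapped between the neighbours SMAD4 and TGFBR2 and between TGFBR2 and SMAD7, and not between the other neighbours. In the knockout SMAD7 came after TGFB1, at 7.42 ± 1.34 RPKM (SD, n = 3), with a range that overlapped that of SMAD2 at 6.48 ± 1.07 RPKM. The other neighbours in the knockout order also overlapped, except TGFB1 with SMAD7 and TGFBR1 with SMAD3. The RPKM rest on the deposited gene lengths, 13770 bases for SMAD2 against 3692 for SMAD7, and which transcripts the cells use was not measured here.

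As shares of the summed RPKM of the SMAD genes, with SMAD9 included, the inhibitory SMADs took 23.1%, 21.7% and 22.6% in the control libraries and 33.04%, 27.4% and 38.7% in the knockout libraries. The BMP branch took 16.2%, 18.9% and 18.5% in the control and 13.4%, 15.9% and 9.16% in the knockout. Neither share overlapped between the groups. The TGF-beta branch took 37.1 ± 0.369% in the control and 34.0 ± 4.40% in the knockout, and SMAD4 22.6 ± 0.655% and 20.1 ± 2.21% (SD, n = 3), and both overlapped. Shares sum to the whole, so a rise of SMAD7 lowers the others without any change in their level.

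**Figure D4:**
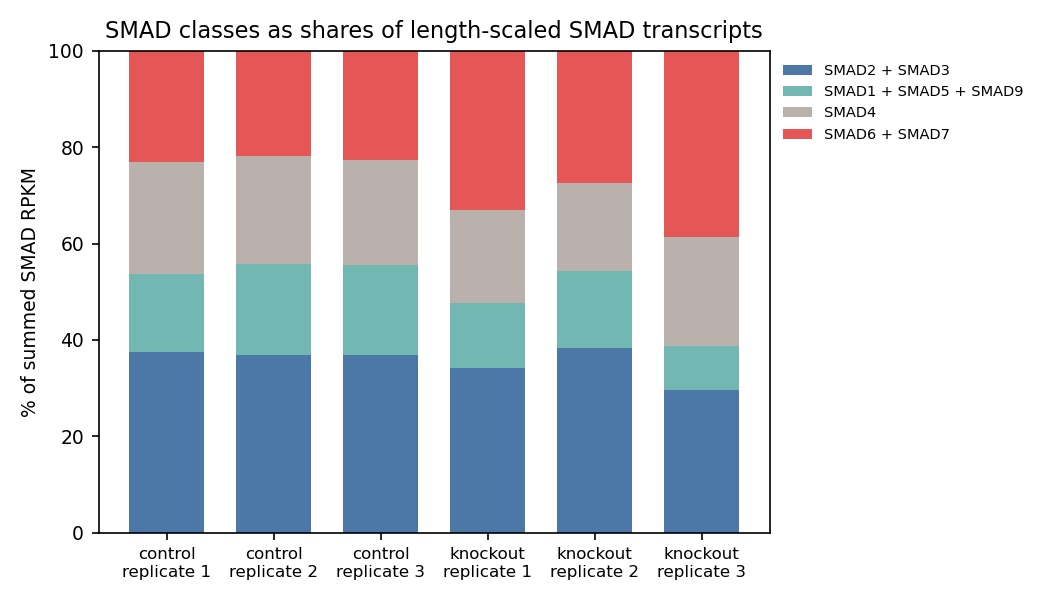
Shares (%) of the summed RPKM of 8 SMAD genes in each library, stacked as the TGF-beta branch, the BMP branch, SMAD4 and the inhibitory SMADs. The inhibitory share is 21.7% to 23.1% in the control bars and 27.4% to 38.7% in the knockout bars.

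By the shape of their values over the 6 libraries, the genes most like SMAD7 were BTN2A2 and CRYBB2P1, with root mean square differences of 0.05 and 0.08 in log2 CPM after each gene was centred on its own mean. Those most like TGFB1 were CEP89 and CTU2, both at 0.05. They were chosen out of 10567 genes for this likeness, which is a description. CEP89 lies on chromosome 19, as TGFB1 does, and CTU2 on chromosome 16, BTN2A2 on chromosome 6 and CRYBB2P1 on chromosome 22. Median log2 fold changes were 0.43 on chromosome 6 and 0.23 on chromosome 22. With chromosome centring BTN2A2 (edgeR adjusted p = 0.239) and CRYBB2P1 (0.0933) lost the calls they had in the main analysis. CEP89 (edgeR adjusted p = 0.0650) and CTU2 (0.0629) did not pass in the main analysis.

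The wider pathway was read from 7 lists with 153 genes, of which 108 were tested, 12 rose, 16 fell and 80 did not pass. That is against the same background of 11.8%, and the median log2 fold change of the 108 was -0.08. Among other receptors and co-receptors 11 of 18 were tested, 1 rose, 3 fell and 7 did not pass. The gene that rose was ACVR2A, a type II receptor for activins that also accepts BMPs, at 2.20, 2.44 and 2.71 CPM in the control and 18.9, 8.15 and 17.9 CPM in the knockout libraries. Every knockout library was far above the control range, and the log2 fold change was 2.61 (SE 0.30, adjusted p = 0.000616), called in all 15 alternatives. The genes that fell were the type I receptors BMPR1B and ACVR1 and the co-receptor TGFBR3, all low, with 0.751, 1.13 and 1.31 CPM in the control and 0.199, 0.376 and 0.551 CPM in the knockout on average. The BMPR1B call was lost without control replicate 2 (adjusted p = 0.0603) or 3 (0.0892). The ACVR1 call was lost without control replicate 1 (0.0757), 2 (0.0853) or 3 (0.0771). The TGFBR3 call was lost without control replicate 2 (0.121) or 3 (0.170), or knockout replicate 1 (0.133) or 3 (0.0673).

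Among other ligands of the family only 9 of 33 were tested, of which 2 rose, 3 fell and 4 did not pass. INHBE, a subunit of activin E and a gene induced by cell stress, rose from 59.1, 55.9 and 52.5 CPM in the control to 132, 115 and 101 CPM in the knockout libraries. The groups were far apart, INHBE being up by 1.05 on the log2 scale (SE 0.15, adjusted p = 0.00173), and it was called in all 15 alternatives. GDF15, a stress-induced ligand, rose from 0.230, 0.0170 and 0.106 CPM to 7.70, 0.476 and 17.5 CPM, with knockout replicate 2 far below the other knockouts, and was called in 13 of the 14 alternatives that tested it but not by limma-voom (adjusted p = 0.0605). Its control counts were only 11, 1 and 6, and its log2 fold change ran from 5.20 to 7.09 with 1 library left out. AMH (log2 -1.21), BMP8B (-1.18) and BMP6 (-1.03, named after its values were seen) fell and were called in 11, 12 and 9 alternatives. AMH lies on chromosome 19 and reached -0.74 (adjusted p = 0.110) after chromosome centring. Of 10 tested genes for ligand activation and extracellular antagonists 1 fell, FSTL3, an activin-binding protein gene on chromosome 19, at -0.85, and 9 did not pass. With chromosome centring FSTL3 was at -0.39 (adjusted p = 0.250). Of 27 tested regulators of receptors and SMADs, among them ubiquitin ligases, phosphatases and transport factors, 0 rose, 1 fell and 26 did not pass. The gene that fell was RANBP3, a nuclear export factor for SMAD2 and SMAD3 on chromosome 19, at -0.68, or -0.21 (adjusted p = 0.377) with chromosome centring. Of 15 tested genes of the non-SMAD kinase branch 1 rose and 14 did not pass. It was TAB2, an adaptor of the kinase TAK1 on chromosome 6, at 0.69, or 0.24 (adjusted p = 0.426) with chromosome centring. FSTL3, RANBP3 and TAB2 were called in 9, 11 and 9 of the 15 alternatives.

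The nuclear partners of SMADs changed in both directions, 4 higher, 4 lower and 14 that did not pass out of 22 tested. Their median log2 fold change was 0.02. Of all tested genes 11.8% were called, 6.19% higher and 5.63% lower. SKIL, the SKI relative induced by TGF-beta, had 2.57, 4.23 and 3.89 CPM in controls against 15.1, 9.79 and 10.5 CPM in knockouts, up by 1.72 on the log2 scale (SE 0.26, adjusted p = 0.00193). RUNX1, a transcription factor of blood formation that binds SMADs, went from 111 ± 37.8 to 41.4 ± 8.93 CPM (SD, n = 3), and the log2 fold change was -1.43 (adjusted p = 0.00364). SKIL and RUNX1 were called in all 15 alternatives. Less stable were ATF3 (log2 0.97), RUNX3 (0.69) and CEBPB (0.58), which rose and were called in 14, 8 and 6 alternatives. ZEB2 (-1.41), TGIF2 (-0.65) and SKI fell and were called in 12, 11 and 10. RUNX3, CEBPB and TGIF2 were named after their values were seen. Of 14 tested feedback and response genes 4 rose, 4 fell and 6 did not pass, against the same background of 11.8%. Their median log2 fold change was -0.51. ID2, an inhibitor of helix-loop-helix factors and a BMP target, had 16.9, 20.6 and 10.7 CPM in controls against 5.75, 6.27 and 3.53 CPM in knockouts (log2 fold change -1.63, adjusted p = 0.00412). NEDD9, BHLHE40 and CDKN1A had log2 fold changes of 1.30, 1.40 and 3.86. CDKN1A had 9.05, 2.17 and 15.8 CPM in the knockouts, a wide spread, and its log2 fold change was 3.21 without knockout replicate 3. ID2, NEDD9, BHLHE40 and CDKN1A were each called in all 15 alternatives, with NEDD9 at 0.85 and CDKN1A at 3.41, both on chromosome 6, after chromosome centring. The remaining genes of this list that passed, named after their values were seen, were CDKN2B (2.18), JUNB (-0.98), MYC (-1.02) and SNAI1 (-0.90), called in 13, 13, 11 and 7 alternatives. JUNB lies on chromosome 19 and did not pass with chromosome centring (-0.51, adjusted p = 0.0852) or neighbour centring (-0.58, 0.0521).

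**Figure D5:**
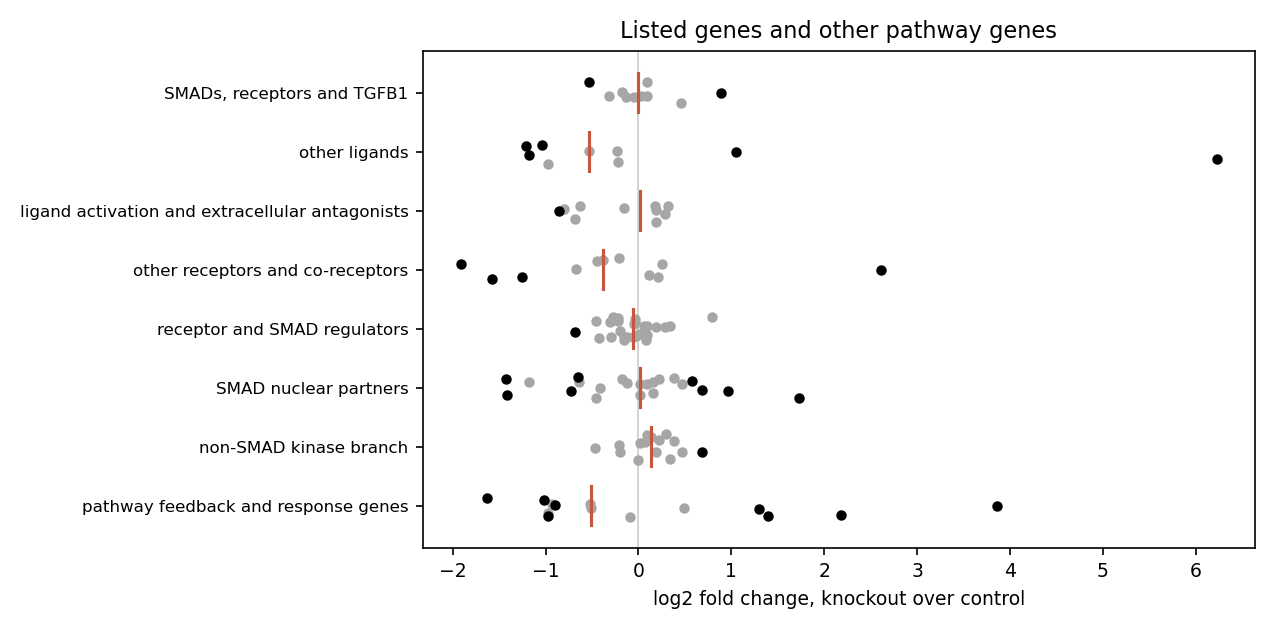
Log2 fold change of each tested gene in the group of SMADs, receptors and TGFB1 and in 7 further pathway lists (black where the adjusted p is under 0.05, grey otherwise, red bar at the list median). The first group spans -0.54 to 0.89. The largest log2 fold changes in black are GDF15 at 6.23 among ligands, CDKN1A at 3.86 among feedback and response genes and ACVR2A at 2.61 among receptors.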

How the data were processed

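Per the labels' protocols, libraries of polyadenylated RNA kept strand. Tools named in the submitters' processing notes are TopHat2, featureCounts, Subread, bcl2fastq, DESeq2 and DESeq, with hg19 (GRCh37) as build; their versions were not stated in the sources used here. Raw counts per gene, deposited by the authors with gene lengths, were the input of every test. Size-factor-scaled values, a signal deposited in another table, were not tested. That table also gives the authors' log2 fold changes, a test score and p-values.

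The 10 genes, the gene lists and the tests were chosen with earlier results of these data known. Genes kept by filterByExpr were scaled by TMM and tested with edgeR's quasi-likelihood F test in R 4.3.3 (limma 3.58.1 and edgeR 4.0.16) with group as the only term. P-values were adjusted by Benjamini-Hochberg over all 16340 genes with a threshold of 0.05, and standard errors were derived from the F statistic. Log2 CPM used a prior count of 2. Named were all 10 genes, SKI, SKIL, up to 4 called genes with the smallest p in a pathway list, and for each of the 10 that passed the 2 genes nearest in centred log2 CPM. Chromosomes came from GENCODE 29 or, for older symbols, RefSeq, for 84.5% of tested genes, and promoters from RefSeq, both on a later build. Alternatives were DESeq2 size factors, library totals, no filter, CPM of at least 1 in 3 libraries, limma-voom, DESeq2 1.42.0, each library left out, a replicate block, and centring on chromosomes or on 50 neighbours. Scripts were tested on simulated data. Within a group, 65.4% to 80.1% of genes with at least 200 counts in a pair of libraries differed beyond counting noise, so no library was a copy of another.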

Additional observations from a re-analysis of the deposited data

How the results depend on the processing

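Of the 10 genes, SMAD7 was called in 14 of 15 alternatives, TGFB1 in 7, TGFBR1 in 2 and the others in 0. The number called was 2 in the main analysis, 1 (SMAD7) with library totals and 1 (SMAD7) with neighbour centring, and with chromosome centring the 2 were SMAD7 and TGFBR1. Leaving out 1 library gave between 0 and 3. Over all genes that count ran from 740 to 2488 against 1932, and with neighbour centring it was 1280. The cause was not tested. Of the 8 genes that did not pass, SMAD1, TGFBR1 and TGFBR2 kept their sign with each library left out, and the other 5 changed sign, over a range of log2 fold changes from -0.00298 to 0.24 for SMAD2, -0.11 to 0.32 for SMAD3, -0.00639 to 0.13 for SMAD4, -0.31 to 0.11 for SMAD5 and -0.16 to 0.11 for SMAD6.

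Replicate numbers are shared by the groups, and nothing in the labels says that they pair the libraries. Deviations from the group means correlated at -0.17, 0.42 and -0.09 for numbers 1, 2 and 3. Such deviations are tied to each other within a group of 3, so these correlations cannot settle whether libraries were paired. With the replicate number as a block 2107 genes and 2 of the 10 were called, SMAD7 and TGFB1 as before. Not every library correlated best with its own number.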
